A study of Homo sapiens with 12 samples.

Results

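The MYC, MAX and MXD network was followed through 10 transcription factor genes: MYC, MYCN, MYCL, MAX, MXD1, MXI1, MXD3, MXD4, MNT and MLX. They were chosen by name as genes of 1 network, with no threshold on a measured value, and are 10 of the 78930 genes read from the counts. The study used OCI-AML3, an established human acute myeloid leukaemia line that carries NPM1c, a mutant nucleophosmin found in the cytoplasm. In the degron version of the line the endogenous NPM1c carries a tag that lets dTAG-13, a small-molecule degrader, remove the protein, while the other NPM1 allele is wild type. RNA was sequenced from 12 libraries in 4 groups of 3. The cell line label carries a different running number for each library, while the protocol names OCI-AML3 degron cells for all, and that all libraries come from 1 line is inferred from the protocol. The dTAG mCherry, dTAG FL-NPM1c and dTAG C-body null groups were transduced with virus for mCherry alone, full-length NPM1c with mCherry or the C-body null construct with mCherry, and received 500 nM dTAG-13 at 48 hours after transduction. Per the protocol, mCherry-positive cells were sorted 24 hours after the degrader was added. The NTC DMSO group carried the degron and received solvent according to its titles, although its treatment label reads dTAG. Its labels name no construct and do not explain NTC, and whether its cells were sorted for mCherry is not given. The degrader, the virus and the sort therefore cannot be told apart in comparisons with it. By the protocol and the genotype labels, all groups share the degron line and its wild-type allele. The labels do not say whether the line is 1 clone, what the C-body null construct changes or whether replicates were separate cultures, so p-values measure only the spread between these libraries.

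MYC proteins bind E-box DNA as pairs with MAX and activate genes of growth, ribosome production and metabolism. The MXD proteins and MNT compete for MAX, bind the same kind of site and recruit SIN3 and histone deacetylases to repress. MLX is a parallel partner that pairs with the glucose-sensing factors MLXIP (MondoA) and MLXIPL (ChREBP) and also with some MXD proteins and MNT. In myeloid cells a shift from MYC towards MXD proteins is a classical feature of terminal differentiation.

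Library totals ranged from 30.5 M to 59.9 M counts. NPM1 RNA was 1430 ± 117 CPM (the usual scaling of counts to library size, here with edgeR's TMM factors; mean ± SD, n = 3) for NTC DMSO and 1252 ± 171 CPM for dTAG mCherry, and stood at 1651 ± 38.9 CPM with full-length NPM1c and 1922 ± 21.7 CPM with C-body null. Because the degrader acts on protein, this level does not check the loss of NPM1c. Of 6 myeloid leukaemia markers, KIT was at 0 and CD34 at or below 0.302 CPM in all libraries, and MPO was not called in dTAG mCherry against NTC DMSO. There CD33 rose (0.41 on the log2 scale) while HOXA9 (-0.50) and MEIS1 (-0.81) fell, and these last were lower again with C-body null than in dTAG mCherry (-0.56 and -0.68). With full-length NPM1c against dTAG mCherry, CD33 was lower (-0.26), while HOXA9 (0.07) and MEIS1 (0.25) were not called. The mean of MPO was highest with C-body null, at 2.59 ± 0.56 CPM beside 1.37 ± 0.13 in NTC DMSO. Of 4 T and NK cell markers CD3E, CD3D and CD2 were at 0, while NKG7 was at 0.725 to 1.37 CPM. The summed B cell and erythroid markers stayed at or below 0.202 and 0.117 CPM. Of 4 epithelial and fibroblast markers EPCAM and KRT19 were at 0 and the sum was at most 1.57 CPM, but the collagen gene COL1A2 moved with the groups, at 0.54 CPM in NTC DMSO, 0.0784 in dTAG mCherry, 1.36 with full-length NPM1c and 0.207 with C-body null. It was called lower in dTAG mCherry against NTC DMSO (edgeR adjusted p = 0.00035) and higher with full-length NPM1c against dTAG mCherry (adjusted p = 5.7e-06). Of 7 monocyte markers all 7 rose in dTAG mCherry against NTC DMSO, and their summed level was 338 to 389 CPM in NTC DMSO and 2985 to 3436 CPM in dTAG mCherry. With full-length NPM1c it was 2644 to 2825 CPM, and with C-body null 4193 to 4350 CPM. Most of the sum was LYZ (2506 ± 32.7 CPM with full-length NPM1c). With full-length NPM1c against dTAG mCherry 3 of the 7 fell, ITGAM by -2.02, to 3.81 CPM beside 3.94 in NTC DMSO, S100A8 by -1.27 and S100A9 by -1.18 on the log2 scale. The mitochondrial share of counts was between 6.83% and 7.63% outside the dTAG mCherry group, whose replicates 1 to 3 had shares of 8.41%, 7.32% and 9.63%. The myeloid, monocyte and COL1A2 levels and the mitochondrial share move with the groups compared below, and their part in the results was not tested. In bulk RNA, fewer cells with a transcript and less transcript per cell cannot be told apart.

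The promoters shown are those of the 4 members that passed the test when dTAG mCherry was compared with NTC DMSO, each as the 250 bases before the RefSeq start site (GRCh38.p14), 5′ to 3′ on the gene's strand, with the E-box CACGTG in capitals. The first 3 belong to members that rose and the last to one that fell.
MYCL, chr1:39901918-39902167, minus strand: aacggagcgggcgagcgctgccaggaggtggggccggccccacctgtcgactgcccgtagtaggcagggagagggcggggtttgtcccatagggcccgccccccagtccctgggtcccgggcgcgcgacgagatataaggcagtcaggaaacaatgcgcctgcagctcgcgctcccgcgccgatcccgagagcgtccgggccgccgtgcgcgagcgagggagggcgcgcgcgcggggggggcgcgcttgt
MXD4, chr4:2262110-2262359, minus strand: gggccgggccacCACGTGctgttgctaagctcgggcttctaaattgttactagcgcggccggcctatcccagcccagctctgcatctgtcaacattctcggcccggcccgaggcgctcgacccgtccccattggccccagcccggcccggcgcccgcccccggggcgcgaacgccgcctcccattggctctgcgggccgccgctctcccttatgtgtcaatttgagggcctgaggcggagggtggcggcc
MXD1, chr2:69914859-69915108, plus strand: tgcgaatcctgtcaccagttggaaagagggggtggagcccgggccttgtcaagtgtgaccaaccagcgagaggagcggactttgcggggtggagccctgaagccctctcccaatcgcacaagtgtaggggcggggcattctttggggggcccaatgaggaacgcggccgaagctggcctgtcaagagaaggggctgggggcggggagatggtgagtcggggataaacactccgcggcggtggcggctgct
MLX, chr17:42566850-42567099, plus strand: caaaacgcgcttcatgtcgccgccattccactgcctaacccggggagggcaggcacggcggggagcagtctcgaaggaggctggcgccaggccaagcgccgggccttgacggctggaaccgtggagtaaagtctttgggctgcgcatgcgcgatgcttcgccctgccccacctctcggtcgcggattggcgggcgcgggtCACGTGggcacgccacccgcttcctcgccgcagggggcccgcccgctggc
The E-box reads the same on both strands and was searched in RefSeq windows of 300 bases, from 250 before to 50 after a start site. It was present in 2548 of 35116 such windows (7.26%). RefSeq windows of 9 members were searched, 12 windows in all, and MYC was left out of this search. The windows of MXD4, MNT and MLX held the motif, starting 238, 193 and 50 bases before the start site. The windows printed for MYCL and MXD1 do not hold these letters. A match is a description of the sequence and not a measured binding site.

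Of the activating members, MYC was abundant, MYCL was low and MYCN, the paralog known from neuroblastoma, had 0 counts in all 12 libraries, where a floor of 3 counts corresponds to 0.0492 to 0.1 CPM. Per kilobase of exon, MYC had the highest level of the network, with a median of 68.3 CPM per kb over the libraries. MXD3 followed at 40.4, MLX at 24.0 and MAX at 12.5, and MXD1 (5.32) and MXI1 (4.93) overlapped in range. MXD4 (2.99), MNT (2.40) and MYCL (1.10) were lowest; the range of MXD4 overlapped those of MNT and MYCL, while MNT and MYCL did not overlap. Of the 10 members 9 passed the filter on low counts and were tested; MYCN did not.

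**Figure D1:**
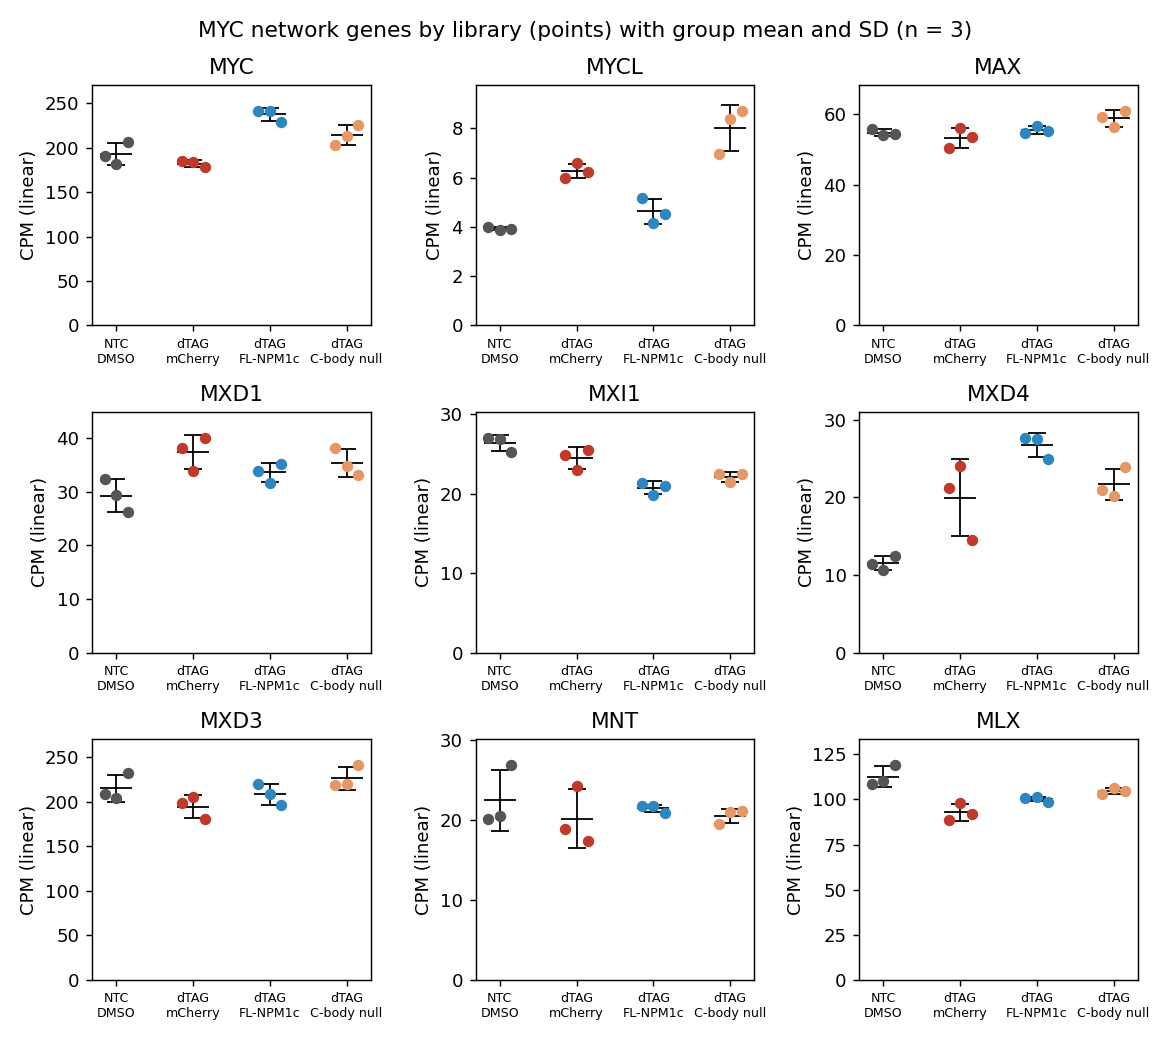
Levels of the 9 detected members in CPM (vertical axes, linear and starting at 0) in the 4 groups; points are libraries, with the group mean and SD (n = 3). MYC is highest in dTAG FL-NPM1c, MYCL is highest in dTAG C-body null, and the 3 NTC DMSO libraries are the lowest for MXD4.

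When dTAG mCherry was compared with NTC DMSO, which sets degrader-treated, mCherry-transduced cells against cells with solvent, 3 of 9 tested members rose and 1 fell by edgeR's quasi-likelihood test with Benjamini-Hochberg adjustment over 24064 genes at an adjusted p under 0.05. Among all genes tested, 12.9% were called higher and 9.69% lower. The paralog MYCL, the repressors MXD4 and MXD1, and the partner MLX were those 4. MYC itself was not called. Its level was 190.5, 181.5 and 206.7 CPM in NTC DMSO replicates 1 to 3 and 184.7, 183.9 and 178.2 CPM in dTAG mCherry, and the groups overlapped. The log2 fold change of MYC was -0.08 ± 0.07 (SE; 95% interval -0.23 to 0.07, adjusted p = 0.46).

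MYCL (ENSG00000116990, chromosome 1, 39895426 to 39902256, GENCODE 29 on GRCh38) is a less potent MYC paralog that also needs MAX. It was at 4.02, 3.88 and 3.94 CPM in NTC DMSO and 6.00, 6.58 and 6.25 CPM in dTAG mCherry. Every dTAG mCherry library was above every NTC DMSO library. The rise was 0.67 ± 0.12 on the log2 scale (1.59-fold, edgeR adjusted p = 0.00072). MYCL shares 226 exon bases with the opposite-strand gene AL033527.2, whose counts were 0.323 to 0.53 of those of MYCL. The strand setting of the counting is not given in the sources used here, so part of the reads of such pairs may belong to either gene.

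MXD4 (ENSG00000123933, chromosome 4, 2247432 to 2262294) encodes a MAX partner that represses MYC sites. It was at 11.5, 10.6 and 12.4 CPM in NTC DMSO and 21.2, 24.1 and 14.5 CPM in dTAG mCherry. The groups did not overlap, but dTAG mCherry replicate 3 was well below the other 2 libraries of its group. The rise was 0.80 ± 0.14 on the log2 scale (1.74-fold, edgeR adjusted p = 0.00065) and lay between 0.64 and 0.98 when 1 library was left out at a time.

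MXD1 (ENSG00000059728, chromosome 2, 69897688 to 69942945), the founding MXD repressor and a gene known to rise in myeloid differentiation, was at 32.3, 29.4 and 26.1 CPM in NTC DMSO and 38.1, 33.8 and 40.0 CPM in dTAG mCherry. The groups did not overlap, though the lowest dTAG mCherry library was close to the highest NTC DMSO library. The rise was 0.35 ± 0.10 (1.27-fold, edgeR adjusted p = 0.016). The call was lost without NTC DMSO replicate 3 (0.27, adjusted p = 0.059), dTAG mCherry replicate 1 (0.33, adjusted p = 0.066) or dTAG mCherry replicate 3 (0.29, adjusted p = 0.059), and with the 2 groups fitted alone (0.36, adjusted p = 0.071). MXD1 shares 237 exon bases with the same-strand splicing gene SNRNP27, which fell (-0.33 ± 0.10, adjusted p = 0.022) while MXD1 rose.

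The other MAX-binding repressors did not pass the test. MXI1, the MXD2 protein's gene, was at 27.0, 27.0 and 25.3 CPM in NTC DMSO and 24.9, 23.0 and 25.6 CPM in dTAG mCherry (-0.11 ± 0.08, edgeR adjusted p = 0.35). MXD3 averaged 214.8 ± 14.9 and 194.4 ± 12.5 CPM (-0.14 ± 0.08, adjusted p = 0.21). MNT, which shares many sites with MYC, averaged 22.5 ± 3.81 and 20.2 ± 3.66 CPM (-0.15 ± 0.13, adjusted p = 0.43). MAX, the shared partner, averaged 54.8 ± 0.94 and 53.3 ± 2.87 CPM (-0.04 ± 0.07, adjusted p = 0.75, 95% interval -0.19 to 0.11).

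MLX (ENSG00000108788, chromosome 17, 42567068 to 42573239) was at 108.8, 110.3 and 119.1 CPM in NTC DMSO and 88.5, 98.0 and 91.8 CPM in dTAG mCherry. All 3 dTAG mCherry libraries were below all 3 NTC DMSO libraries. The fall was -0.28 ± 0.07 on the log2 scale (edgeR adjusted p = 0.008) and was not called with the 2 groups fitted alone (-0.28, adjusted p = 0.084). MLX shares 770 exon bases with the opposite-strand recombination gene PSMC3IP, which fell as well (-0.51 ± 0.08, adjusted p = 0.00012).

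The overlap matters most for MXD3, which shares 1158 exon bases with the opposite-strand PRELID1, a mitochondrial lipid-transfer gene, and 926 with RAB24. PRELID1 counts were 1.05 to 1.13 times those of MXD3 in all 12 libraries, and both moved together from library to library. The level and place of MXD3 in the network are therefore uncertain. MNT shares 1065 exon bases with the antisense AC006435.1, whose counts were 0.216 to 0.266 of its own.

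**Figure D2:**
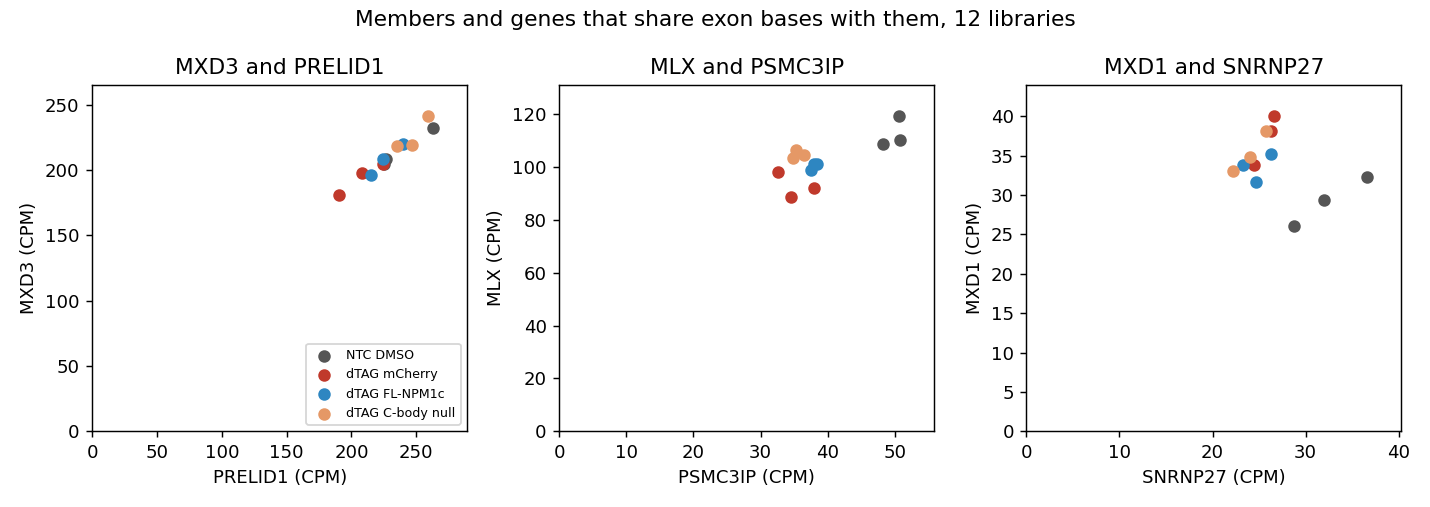
Level of a member (vertical axes, CPM) against that of a gene sharing exon bases with it (horizontal axes, CPM), with points as the 12 libraries coloured by group. MXD3 and PRELID1 lie along a line, MLX and PSMC3IP are both highest in the NTC DMSO libraries, and SNRNP27 is highest in the NTC DMSO libraries, where the group mean of MXD1 is lowest.

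Adding back full-length NPM1c raised MYC and lowered MYCL relative to dTAG mCherry, the 2 of 9 members called in this comparison (1 higher, 1 lower). Among all genes 7.58% were called higher and 7.95% lower. The dTAG mCherry libraries enter both this comparison and the one with NTC DMSO, so the directions in them are not independent. MYC was at 241.5, 241.8 and 229.3 CPM in dTAG FL-NPM1c against 178.2 to 184.7 CPM in dTAG mCherry, with a gap between the groups larger than the spread within either. The rise was 0.38 ± 0.07 (1.30-fold, edgeR adjusted p = 0.0022).

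MYCL was at 5.18, 4.17 and 4.53 CPM with full-length NPM1c, below the 6.00 to 6.58 CPM of dTAG mCherry. The difference was -0.44 ± 0.12 on the log2 scale (edgeR adjusted p = 0.021). It was not called without dTAG FL-NPM1c replicate 2 (-0.37, adjusted p = 0.1) or replicate 3 (-0.42, adjusted p = 0.059), or with the 2 groups alone (-0.43, adjusted p = 0.055).

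MXD4 and MXI1 came close to the threshold in opposite directions. MXD4 was at 27.6, 27.5 and 24.9 CPM in dTAG FL-NPM1c, all above dTAG mCherry (0.41 ± 0.14, edgeR adjusted p = 0.054). MXI1 was at 21.4, 19.9 and 21.0 CPM, all below dTAG mCherry (-0.24 ± 0.08, adjusted p = 0.056). Without dTAG mCherry replicate 2 both were called, at 0.57 (adjusted p = 0.0058) for MXD4 and -0.28 (adjusted p = 0.018) for MXI1, and DESeq2 called both as well (adjusted p = 0.026 and 0.035). Without dTAG mCherry replicate 3, its lowest library, the MXD4 value was only 0.21 (adjusted p = 0.24). Leaving out 1 library at a time gave 0.21 to 0.57 for MXD4 and -0.29 to -0.21 for MXI1. MAX, MXD1, MXD3, MNT and MLX were not called, with adjusted p from 0.29 to 0.68.

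None of 9 tested members was called by edgeR when dTAG C-body null was compared with dTAG mCherry, a comparison in which 0.216% of all genes were called higher and 0.378% lower. At an unadjusted p under 0.05, 4 of 9 members and 11.9% of all genes passed, and DESeq2 called 1 member, MYC. The share of all genes called by DESeq2 was not computed. MYC was at 203.5, 213.8 and 226.2 CPM with C-body null, above all dTAG mCherry libraries (0.23 ± 0.07, edgeR adjusted p = 0.21; DESeq2 0.25, adjusted p = 0.037). MYCL was at 6.95, 8.38 and 8.72 CPM, also above all dTAG mCherry libraries (0.35 ± 0.12, edgeR adjusted p = 0.25). The other 2 members at an unadjusted p under 0.05 were MXD3 (0.22 ± 0.08) and MLX (0.17 ± 0.07).

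The constructs compared directly differed in MYCL, the only one of 9 members called, against 4.82% of all genes called higher and 4.86% lower with full-length NPM1c than with C-body null. MYCL was lower with full-length NPM1c in all 3 libraries, by -0.79 ± 0.12 on the log2 scale (edgeR adjusted p = 0.00026), and the value stayed between -0.90 and -0.73 when 1 library was left out at a time. For MYC the difference was 0.15 ± 0.07 (adjusted p = 0.21, 95% interval -0.003 to 0.30), so a difference between the constructs in MYC was not shown although its level was highest with full-length NPM1c. MXD4 differed by 0.30 ± 0.14 (adjusted p = 0.19), and with the 2 groups alone it was called (adjusted p = 0.02).

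**Figure D3:**
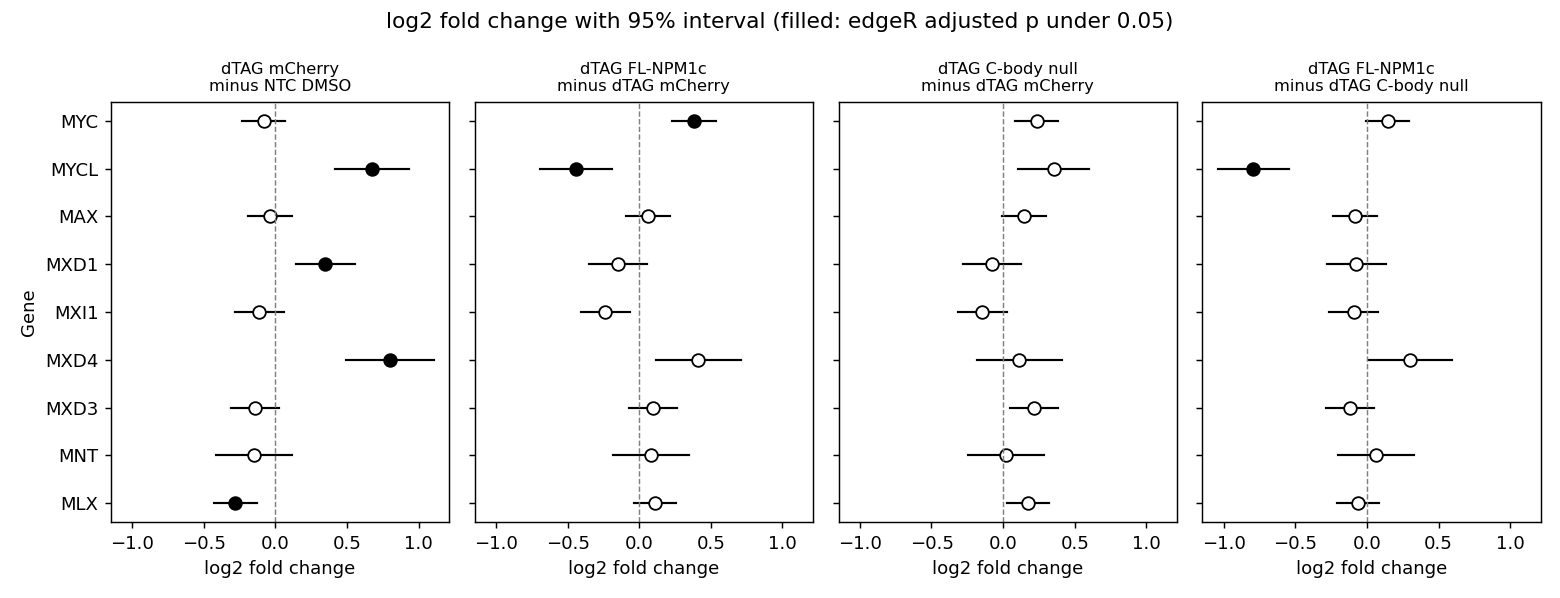
Log2 fold change (horizontal axes) of the 9 tested members in 4 comparisons, with 95% intervals; filled points had an edgeR adjusted p under 0.05. MYCL is filled in 3 comparisons, MYC in dTAG FL-NPM1c minus dTAG mCherry, and no member in dTAG C-body null minus dTAG mCherry.

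Both add-back groups were also set against NTC DMSO, in comparisons that share its 3 libraries. With full-length NPM1c, 2 of 9 members were higher and 1 lower, while 14.6% and 13.3% of all genes were called in those directions. MXD4 was higher by 1.21 ± 0.14 (2.32-fold, edgeR adjusted p = 1.5e-05) and MYC by 0.30 ± 0.07 (adjusted p = 0.0053), and MXI1 was lower by -0.35 ± 0.08 (adjusted p = 0.0044). The MYC call was lost without NTC DMSO replicate 2 (0.23, adjusted p = 0.069). MXD4 thus stayed above NTC DMSO in every library of the group that received full-length NPM1c.

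With C-body null, 3 of 9 members were higher than in NTC DMSO and 1 lower, against 14.1% and 12.4% of all genes. MYCL was higher by 1.02 ± 0.12 (2.03-fold, edgeR adjusted p = 7.2e-06) and MXD4 by 0.91 ± 0.14 (1.88-fold, adjusted p = 0.00015). The calls of MXD1 (0.27 ± 0.10, adjusted p = 0.048) and MXI1 (-0.26 ± 0.08, adjusted p = 0.026) were the least stable, lost in 10 and 8 of 14 alternatives; with a replicate block their adjusted p was 0.064 and 0.05. MXD1 was lost without NTC DMSO replicate 2 or 3 or any 1 dTAG C-body null library, and MXI1 without NTC DMSO replicate 1 or 2 or any 1 dTAG C-body null library.

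Around the members, the genes of MYC cofactors, corepressors and turnover that passed the test in dTAG mCherry against NTC DMSO were all lower; over all genes 9.69% were called lower and 12.9% higher. Of 13 MYC coactivators 4 fell (median -0.16 against -0.002 for all genes tested): HCFC1 (-0.42 ± 0.13, edgeR adjusted p = 0.027), ACTL6A (-0.37 ± 0.09), the histone methylation scaffold WDR5 (-0.30 ± 0.07) and the ATPase RUVBL1 (-0.25 ± 0.07). Of 10 SIN3 and NCOR corepressor genes 3 fell (median -0.18), the histone-binding RBBP7 (-0.36 ± 0.09), the scaffold SIN3A (-0.32 ± 0.07) and the deacetylase HDAC1 (-0.22 ± 0.06). Of 14 genes acting on MYC protein stability 4 fell (median -0.14), and these included the stabilisers CIP2A (-0.50 ± 0.10) and AURKA (-0.39 ± 0.08), the ubiquitin ligase subunit SKP2 (-0.46 ± 0.09) and the deubiquitinase USP28 (-0.31 ± 0.10, adjusted p = 0.032). With the 2 groups alone ACTL6A, WDR5, RUVBL1, HCFC1, RBBP7, SIN3A, HDAC1 and USP28 were not called, with adjusted p from 0.058 to 0.17. Calls were also lost without NTC DMSO replicate 1 (HDAC1 and USP28), replicate 2 (ACTL6A, HDAC1 and USP28) or replicate 3 (HCFC1), and without dTAG mCherry replicate 1 (RUVBL1, HCFC1, HDAC1 and USP28), replicate 2 (USP28) or replicate 3 (HCFC1). With full-length NPM1c against NTC DMSO, 14.6% of all genes were called higher and 13.3% lower. There 2 of 13 coactivators and 4 of 14 turnover genes were lower, with 1 higher in each. Of 10 corepressor genes 5 were lower and 0 higher. Those lower by edgeR included ACTL6A (-0.49 ± 0.09), RBBP7 (-0.37 ± 0.09), CIP2A (-0.64 ± 0.10), AURKA (-0.53 ± 0.08) and SKP2 (-0.51 ± 0.09).

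Of 33 tested genes known to be activated by MYC, 14 fell and 1 rose in dTAG mCherry against NTC DMSO (median -0.24; 9.69% of all genes fell and 12.9% rose), beside a MYC RNA level that was not called different. The largest falls were those of the telomerase gene TERT (15.9 ± 2.14 to 9.81 ± 2.36 CPM, -0.69 ± 0.14, edgeR adjusted p = 0.0021), the purine synthesis enzyme PPAT (-0.51 ± 0.09), the folate carrier SLC19A1 (-0.44 ± 0.12) and the ribosome assembly factor MRTO4 (-0.42 ± 0.07). Of 9 genes known to be repressed by MYC, 5 rose and 1, CDKN1B, fell (-0.38 ± 0.10, adjusted p = 0.01; named after its value was seen). The cell cycle inhibitor CDKN1A, which is also a p53 target, rose from 34.3 ± 3.39 to 243.8 ± 16.0 CPM (2.83 ± 0.09, adjusted p = 6.6e-12), and CDKN2B (2.27 ± 0.16), THBS1 (1.60 ± 0.23) and GADD45A (1.55 ± 0.15) rose as well. These genes have other regulators, and the counts do not show which one acted.

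On the MLX side, its partner MLXIPL rose from 8.21 ± 1.82 to 15.8 ± 3.28 CPM (0.95 ± 0.16, edgeR adjusted p = 0.00032), while MLXIP (0.18 ± 0.10, adjusted p = 0.23) and the MAX-binding factor MGA (-0.12 ± 0.11, adjusted p = 0.5) were not called. All 3 tested Mondo-MLX targets rose, beside 12.9% of all genes called higher. They were TXNIP, an inhibitor of glucose uptake, from 105.2 ± 6.90 to 197.0 ± 12.8 CPM (0.90 ± 0.08, adjusted p = 1.9e-07), the glycolytic regulator PFKFB3 (0.38 ± 0.07) and KLF10 (0.27 ± 0.08, adjusted p = 0.023). ARRDC4 did not pass the count filter. KLF10 lost its call without NTC DMSO replicate 2 (adjusted p = 0.086) or 3 (0.053) or dTAG mCherry replicate 2 (0.056). The call was also lost with the 2 groups alone (0.11), no low-count filter (0.12) or a replicate block (0.052). With full-length NPM1c against dTAG mCherry, MLXIPL (-0.30 ± 0.15), TXNIP (0.09 ± 0.07), PFKFB3 (-0.12 ± 0.07) and KLF10 (-0.18 ± 0.08) were not called. Against NTC DMSO, MLXIPL (0.65 ± 0.16), TXNIP (0.995 ± 0.08) and PFKFB3 (0.26 ± 0.07) were called higher with full-length NPM1c, beside 14.6% of all genes. PFKFB3 lost this call without NTC DMSO replicate 2 (edgeR adjusted p = 0.07) or dTAG FL-NPM1c replicate 1 (0.097).

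With full-length NPM1c against dTAG mCherry, 5 of 33 MYC-activated genes rose and 1 fell (median 0.14 against -0.002 for all genes, of which 7.58% rose and 7.95% fell). TERT (0.77 ± 0.14, edgeR adjusted p = 0.0021), the nucleolar methyltransferase FBL (0.42 ± 0.09) and the guanine synthesis enzyme IMPDH2 (0.37 ± 0.07) rose, and the transferrin receptor TFRC was lower (-0.32 ± 0.10, adjusted p = 0.035). Of 9 MYC-repressed genes THBS1 rose (0.76 ± 0.20, adjusted p = 0.021) and CDKN2B fell (-0.53 ± 0.14, adjusted p = 0.021), while CDKN1A was not called (-0.16 ± 0.09, adjusted p = 0.21). The THBS1 value rested on dTAG FL-NPM1c replicate 1, without which it was 0.30 (adjusted p = 0.14), and was not called without dTAG mCherry replicate 3 either (0.71, adjusted p = 0.1). The coactivator RUVBL2 (0.46 ± 0.13) and the ubiquitin ligase genes FBXO32 (0.48 ± 0.14) and STUB1 (0.46 ± 0.14) also rose; each lost its call when dTAG mCherry replicate 3 was left out (0.14, 0.072 and 0.19 for the adjusted p). The values of RUVBL2 and STUB1 rested on that library, without which they were 0.27 and 0.25, while FBXO32 was at 0.50. Without it the calls of TFRC (adjusted p = 0.12) and CDKN2B (0.075) were lost too. Without dTAG FL-NPM1c replicate 1 the calls of RUVBL2, FBXO32, STUB1, TFRC and CDKN2B were lost, without replicate 2 those of RUVBL2, FBXO32, STUB1 and TFRC, without replicate 3 that of FBXO32, and without dTAG mCherry replicate 1 those of FBXO32, STUB1 and TFRC.

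With C-body null against dTAG mCherry, 0 of the 85 tested genes of these 7 lists were called by edgeR, with 21 at an unadjusted p under 0.05, beside 11.9% of all genes tested. DESeq2 called 6, and these were APEX1, IMPDH2, MRTO4, NOP56, ODC1 and RUVBL1, named here because of that call. The share of all genes called by DESeq2 was not computed, so these 6 cannot be set against it. The 33 MYC-activated genes had a median of 0.14 with C-body null as well, against -0.013 for all genes. Both medians of 0.14 were taken against the same dTAG mCherry libraries, so they are not independent. With full-length NPM1c against C-body null the median of the 33 genes was -0.034 (0.005 for all genes), with 0 called higher and 1 lower. Between the constructs, 4 of the 85 genes were called by edgeR, beside 4.82% of all genes called higher and 4.86% lower. FBXO32 (0.46 ± 0.14), CDKN1B (0.56 ± 0.10, edgeR adjusted p = 0.0012) and TXNIP (0.24 ± 0.07) were higher and the DNA repair gene APEX1 was lower (-0.25 ± 0.07) with full-length NPM1c. For FBXO32, TXNIP and APEX1 the call was lost on leaving out any 1 of the 6 libraries (adjusted p from 0.05 to 0.23), and CDKN1B kept it. Against NTC DMSO, 1 of 33 MYC-activated genes was higher and 11 were lower with full-length NPM1c (14.6% and 13.3% of all genes). With C-body null 4 were higher and 8 lower (14.1% and 12.4% of all genes). Of 9 MYC-repressed genes 5 were higher with each construct, CDKN1A by 2.67 and 2.86, and 1 was lower with C-body null.

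**Figure D4:**
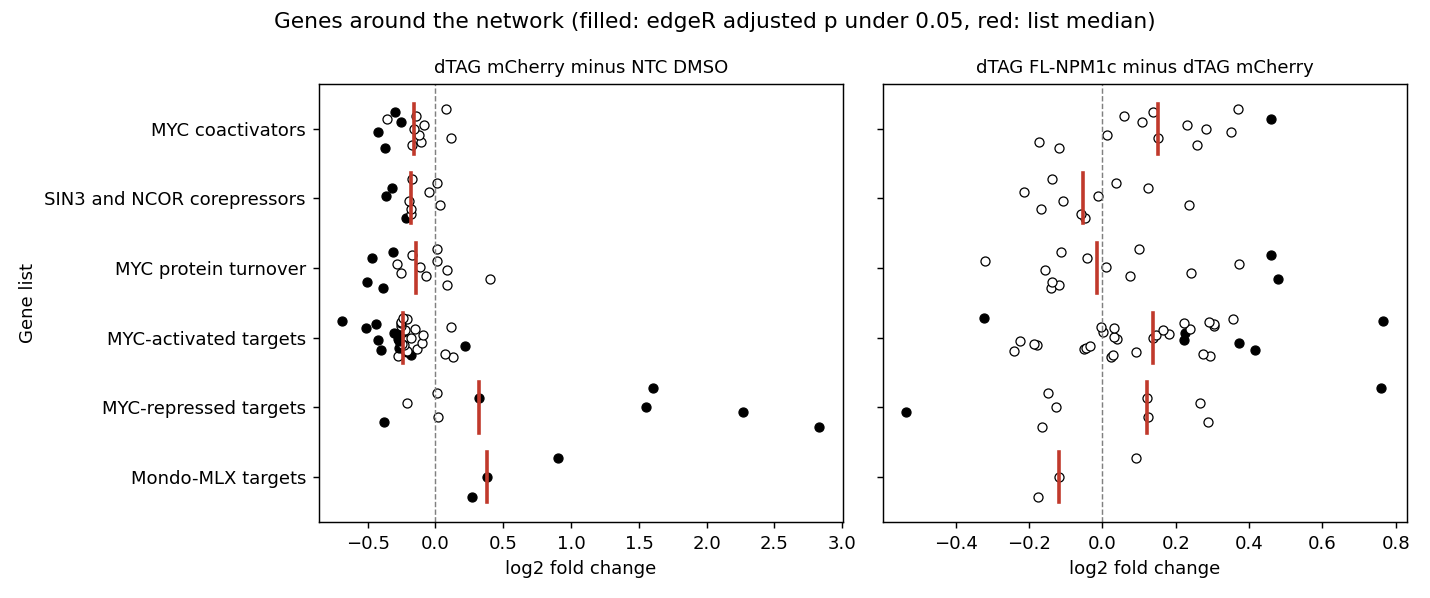
Log2 fold change (horizontal axes, with different ranges) of genes around the network in 2 comparisons; each point is a gene, filled where the edgeR adjusted p was under 0.05, and the red bar is the list median. CDKN1A at 2.83 is the largest value in the left panel and TERT at 0.77 the largest in the right panel.

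The genes whose pattern over the 12 libraries was most like that of MYC, by root mean square (RMS) difference of centred log2 CPM, were the ribosomal protein genes RPL11 (0.037), RPL14 (0.039) and RPS3 (0.040), then FAM32A (0.048) and AC132872.3 (0.049). For scale, the RMS of MYC around its own mean was 0.156. Like MYC, RPL11 was highest in dTAG FL-NPM1c (0.20 above its mean) and lowest in dTAG mCherry (-0.15). For MXD1, with an RMS of 0.162, the nearest were RIOK3 (0.052), GPCPD1 (0.053), SHTN1 (0.058), TRIM4 (0.061) and NDUFAF6 (0.063). These are descriptions over 20823 genes and share the libraries' depth and scaling.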

How the data were processed

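Total RNA of OCI-AML3 degron cells was made into stranded mRNA libraries, per the labels' protocols. The authors deposited whole-number gene counts by Ensembl ID; STAR, featureCounts, DESeq2 and hg38 are named in the submitters' processing notes, while the annotation, the strand setting and the rule for multi-mapping reads are not stated there. Of 78936 lines 6 were broken and left out, which left 78930 genes. Columns were matched to samples by library number, an inference from the labels, and groups followed the titles. A gene name table gave 42177 symbols and GENCODE 29 another 15568, and 21185 IDs had none.

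Testing used edgeR 4.0.16 under R 4.3.3 (TMM factors 0.975 to 1.02, filterByExpr, robust quasi-likelihood fit of all 12 libraries, 6 contrasts, Benjamini-Hochberg over 24064 genes). The filter removed 0.0795% of counts. The SE was obtained as |log2 fold change| over the root of F. CPM used TMM-scaled totals, and levels per kb used GENCODE 29 exon unions. Totals were 30.5 M to 59.9 M counts; at this depth the spread between libraries also limits the precision. Within groups, libraries differed beyond sampling noise (chi-square per degree of freedom 3.45 to 33.6), so none was counted as a copy. The test was checked on simulated counts. Alternatives were DESeq2 1.42.0, other scalings and filters, a replicate block, 2 groups alone, a stricter threshold and leaving out each library. Figures used matplotlib 3.10.9 in Python 3.11.15.

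All members are named, and from each list at most the 4 called genes with the largest change per comparison. Short lists are given in full only for dTAG mCherry against NTC DMSO. The add-back groups against NTC DMSO are an exception, where only some called genes and some list counts are given. The members, lists and tests were chosen with earlier results of these data known, so the lists are not independent evidence.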

Additional observations from a re-analysis of the deposited data

How the results depend on the processing

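Of 54 values (9 members in 6 comparisons) 14 were called, and 8 of these calls were kept under every alternative run for them; no called value changed direction. With the 2 groups alone the members called went from 4 to 2 in dTAG mCherry against NTC DMSO, from 2 to 1 in dTAG FL-NPM1c against dTAG mCherry and from 1 to 2 in dTAG FL-NPM1c against dTAG C-body null. DESeq2 called 4 in dTAG FL-NPM1c against dTAG mCherry and 1 in dTAG C-body null against dTAG mCherry, where edgeR called 2 and 0. For DESeq2 no share over all genes was computed. At an adjusted p under 0.01 the counts were 1 in dTAG FL-NPM1c against dTAG mCherry and 2 in dTAG C-body null against NTC DMSO, and the latter was also 2 of an original 4 with no low-count filter. Leaving out 1 library gave 1 to 4 calls in dTAG FL-NPM1c against dTAG mCherry and 2 to 4 in dTAG C-body null against NTC DMSO. The cause of these changes was not tested.

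With the replicate block 2 members were called in dTAG C-body null against NTC DMSO, and 4, 2, 0, 1 and 3 in the other comparisons, as without it. Same-numbered libraries did not deviate together: of 18 pairs 2 had a correlation over 0.1 (range -0.31 to 0.16), and 0 libraries correlated best with their own number.

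Values that changed sign were all uncalled ones, on leaving out 1 library. Their ranges on the log2 scale were, for dTAG FL-NPM1c against NTC DMSO, -0.0166 to 0.0355 for MAX, -0.12 to 0.0125 for MXD3 and -0.16 to 0.0797 for MNT. MNT ranged from -0.21 to 0.0165 in dTAG C-body null against NTC DMSO, from -0.0728 to 0.18 in dTAG C-body null against dTAG mCherry and from -0.0383 to 0.24 in dTAG FL-NPM1c against dTAG mCherry. MAX ranged from -0.0083 to 0.10 in the last of these, and MXD4 from -0.0648 to 0.27 in dTAG C-body null against dTAG mCherry. The naming rule gave 81 called values of genes outside the members. They include those of the add-back groups against NTC DMSO, most of which are not printed here. Of these 81, 30 lost the call under 1 or more alternatives other than the stricter threshold and 0 changed sign. MYCL, at 149 to 366 counts a library, had the fewest counts of the tested members.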
